A study of Arabidopsis thaliana with 12 samples.

Results

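AT1G74456 is an annotated snoRNA gene on the minus strand of chromosome 1 of Arabidopsis thaliana, and a stretch of 42 nt just upstream of it, at 27984836 to 27984877, has no annotated gene. The members described here are the peaks named for AT1G74456 and the minus-strand peaks that overlap this unannotated stretch, together 40 of the 1037099 peaks in 12 peak lists. Of these, 14 carried the name of AT1G74456 and 26 lay in the unannotated locus. The locus was selected on its reads in peaks, which were higher with both tagged proteins than with GFP, and the gene was taken because it lies next to it, so differences from GFP are given below as a description, without a test.

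The peak lists come from CLIP-seq of fibrillarin, a method that sequences the RNA crosslinked to an immunoprecipitated protein, in Col-0 seedlings grown for 14 days on plates and crosslinked with ultraviolet light. Each of 3 groups, taken from the sample titles, had 4 libraries: GFP-FIB1, in which fibrillarin 1 carries a green fluorescent tag, CFP-FIB2, in which fibrillarin 2 carries a cyan one, and GFP alone, the negative control. No control expressing CFP alone and no input library was analysed here, and the labels do not name the promoters of the transgenes or the number of lines. Nor do they state whether each replicate was a culture of its own, so p-values measure the spread between libraries, which may be technical.

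Fibrillarin methylates RNA as the catalytic subunit of box C/D snoRNA particles. In these particles a guide snoRNA pairs with ribosomal RNA through bases that lie just upstream of a D or D′ box, and a ribose is methylated opposite the fifth base from that box. A box C/D snoRNA has its C box near the 5′ end and its D box near the 3′ end, and a short stem often joins its ends. In plants, snoRNA genes often lie in clusters that are transcribed as one precursor and cut apart.

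The sequences of both members are printed first, because the positions of the peaks are described on them. They were read from the TAIR10.1 assembly of RefSeq, on the minus strand of chromosome 1, 5′ to 3′. Capitals mark TGATGA, the usual letters of a C box, and CTGA, those of a D box.

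unannotated locus: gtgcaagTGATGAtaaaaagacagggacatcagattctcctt
AT1G74456: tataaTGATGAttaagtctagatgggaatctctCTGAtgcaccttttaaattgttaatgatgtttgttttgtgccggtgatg

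AT1G74456 covers chr1:27984745-27984826, a length of 82 nt, and a gap of 9 nt separates it from the unannotated locus. The flanking snoRNA genes of the same strand are shown for comparison with the peaks they carried. AT1G74453, at chr1:27984604-27984713, lies 31 nt downstream of AT1G74456, and AT1G09467, at chr1:27984975-27985042, lies 97 nt upstream of the unannotated locus.

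AT1G09467: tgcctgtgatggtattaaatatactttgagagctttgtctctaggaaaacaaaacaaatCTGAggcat
AT1G74453: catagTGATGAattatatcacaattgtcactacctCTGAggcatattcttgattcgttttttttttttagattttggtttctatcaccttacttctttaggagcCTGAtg

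Values are reads in peaks. The whole number at the end of each peak name was read as the reads in that peak, and levels are reads in peaks per 1000000, scaled between libraries by trimmed mean of M values (TMM) factors and called scaled RPM below. The libraries held 33990 to 135487 peaks and 2858968 to 12844455 reads in peaks. A feature without a called peak has a value of 0 although it may have had reads. The peak lists fell into 3 batches that the labels do not name: the first GFP-FIB1 and CFP-FIB2 replicates with GFP replicates 1 and 2 (batch A), the second ones with GFP replicate 3 (batch B), and the rest (batch C). Over 17226 protein-coding genes the correlation of log2 levels was 0.459 to 0.688 within batch A, 0.656 to 0.700 within B and 0.713 to 0.806 within C. It was 0.158 to 0.250 between A and B, 0.138 to 0.209 between A and C, and 0.472 to 0.633 between B and C, and all 12 libraries were most like a library of their own batch. The batches were found from these same lists, so these values describe the grouping and do not test it. All snoRNA genes served as a check of the tagged groups against GFP, which cannot tell the labels of the tagged proteins from each other. Of 287 annotated, 242 passed the filter on low values, which the tagged libraries alone can meet. Of these, 236 were higher than in GFP by their mean log2 level with GFP-FIB1 and also 236 with CFP-FIB2. Over all 26493 features tested, 14582 were higher with GFP-FIB1 and 15634 with CFP-FIB2.

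The unannotated locus was high in every library of the tagged proteins and low with GFP. Its peaks held 460, 3089, 3001 and 4476 reads in GFP-FIB1 replicates 1 to 4. In CFP-FIB2 replicates 1 to 4 they held 862, 2681, 2132 and 1628 reads, and in the GFP replicates 0, 7, 43 and 231 reads. All 8 libraries of the tagged proteins were thus above all 4 GFP libraries, and GFP replicate 4 stood well above the other GFP libraries.

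After scaling, the locus had 85.3, 256, 435 and 771 scaled RPM in GFP-FIB1 replicates 1 to 4. The CFP-FIB2 replicates had 129, 236, 200 and 389 scaled RPM and the GFP replicates 0, 1.19, 3.78 and 34.0 scaled RPM. The groups did not overlap for either protein against GFP under any scaling tried, and the lowest tagged value here was that of GFP-FIB1 replicate 1. They did overlap when only peaks over at least 21 of the 42 nt were counted, where the lowest value was 0 in both tagged groups and the highest in GFP was 1.47 scaled RPM, and the log2 difference of GFP-FIB1 from GFP was then -0.33. The mean was 387 ± 293 scaled RPM with GFP-FIB1, 238 ± 110 with CFP-FIB2 and 9.75 ± 16.3 with GFP (SD, n = 4 each). On the log2(scaled RPM + 1) scale the difference from GFP was 6.07 ± 1.18 for GFP-FIB1 and 5.66 ± 1.18 for CFP-FIB2 (SE), which is 67.2-fold and 50.6-fold on that scale. With a pseudocount of 4 in place of 1 these log2 differences were 5.07 and 4.67. The samples are whole seedlings, so fewer cells with the RNA and less of it per cell cannot be told apart, nor can more RNA and more binding.

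Complete separation of this kind was uncommon among the 26493 features tested, of which 20204 were genes and 6289 intergenic regions, the locus included. With GFP-FIB1 every library was above every GFP library at 223 features (0.842%), and with CFP-FIB2 this held at 347 (1.31%). Neither share is larger than the 1 in 70 regroupings of 4 against 4 libraries that would put a given group fully on top by chance. Both held at 72 features (0.272%), of which 42 were annotated snoRNA genes, 28 other genes and 2 intergenic regions, one of them the locus. The locus was picked for this contrast, so nothing is read from its place among them. By mean scaled RPM, which is not per length, it ranked 25 among 6289 intergenic regions with GFP-FIB1, 38 with CFP-FIB2 and 1046 with GFP. The fall in rank restates the choice of the locus. Its GFP mean rests mostly on replicate 4, at 34.0 scaled RPM against at most 3.78 in the other GFP libraries.

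**Figure D1:**
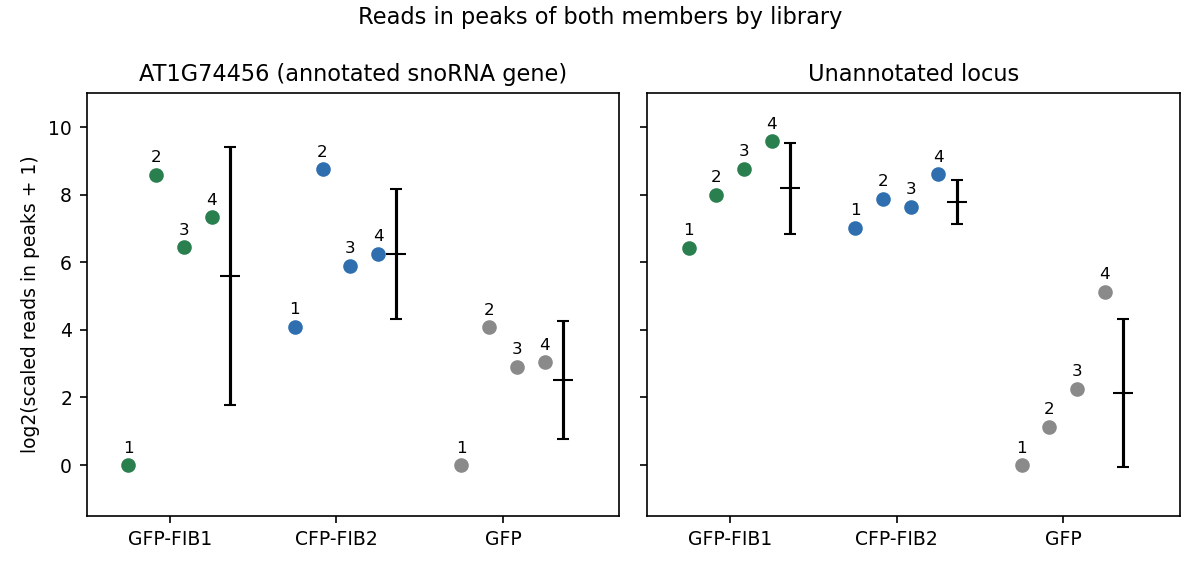
Scaled reads in peaks, on a log2(value + 1) axis, of AT1G74456 (left panel) and the unannotated locus (right panel). Each numbered point is a library, and the bars give the mean ± SD of 4 libraries per group. All 8 points of the tagged proteins lie above the GFP points in the right panel, while AT1G74456 is at 0 in GFP-FIB1 replicate 1 and GFP replicate 1.

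AT1G74456 was high in most libraries of the tagged proteins but varied more between them. It held 0, 4633, 597 and 930 reads in GFP-FIB1 replicates 1 to 4. It held 107, 4901, 629 and 316 reads in the CFP-FIB2 replicates and 0, 93, 74 and 49 reads in the GFP replicates. No peak was called in GFP-FIB1 replicate 1 and GFP replicate 1, and the second replicates of both tagged proteins were the highest of their groups.

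In scaled RPM, AT1G74456 had 0, 384, 86.6 and 160 in GFP-FIB1 replicates 1 to 4. It had 16.0, 431, 58.9 and 75.4 scaled RPM in the CFP-FIB2 replicates, and 0, 15.9, 6.50 and 7.22 in the GFP replicates. GFP-FIB1 therefore overlapped GFP, while CFP-FIB2 stayed above GFP only by the margin of its replicate 1 over GFP replicate 2. That margin was lost when libraries were scaled by total reads in peaks alone, with 13.8 in CFP-FIB2 replicate 1 against 20.2 in GFP replicate 2. It was also lost with peaks of p at most 0.001, at 15.2 against 15.4, and when overlapping peaks of different names were reduced, at 16.0 against 16.3.

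The mean of AT1G74456 was 158 ± 164 scaled RPM with GFP-FIB1, 145 ± 192 with CFP-FIB2 and 7.39 ± 6.51 with GFP (SD, n = 4 each). On the log2(scaled RPM + 1) scale it was above GFP by 3.09 ± 1.61 with GFP-FIB1 and 3.75 ± 1.61 with CFP-FIB2 (SE), or 8.51-fold and 13.4-fold. The median difference from GFP of the 242 snoRNA genes tested was 3.77 with GFP-FIB1 and 3.63 with CFP-FIB2 on the same scale, against 0.09 and 0.14 over all features tested. Groups were fully separated from GFP at 59 of these snoRNA genes with GFP-FIB1, at 81 with CFP-FIB2 and at 42 with both.

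Whether the tagged fibrillarins differed from each other is a comparison that the choice of members did not use directly. The locus was chosen for a rise with both proteins, however, which passes over loci high with only 1 of them. The test at the locus is therefore not free of that choice. For AT1G74456 the mean log2 level was 5.59 with GFP-FIB1 and 6.25 with CFP-FIB2, a difference of -0.66 ± 1.61 (SE, n = 4 each) with an adjusted p of 1.00 by limma. The 95% interval of this difference ran from -4.07 to 2.76, and a two-sided exact permutation test over these 8 libraries gave p = 0.857. The difference was smaller than the spread between replicates, and the interval holds large differences in either direction. Without GFP-FIB1 replicate 1, which had no peak, it was 1.21, and without CFP-FIB2 replicate 2 it was 0.18, so its sign rested on single libraries.

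For the unannotated locus the mean log2 level was 8.20 with GFP-FIB1 and 7.79 with CFP-FIB2, a difference of 0.41 ± 1.18 (SE, n = 4 each) with an adjusted p of 1.00 by limma. Its 95% interval ran from -2.10 to 2.92, and the exact permutation test gave p = 0.629. Both took the libraries as unpaired and left out the batches. With the 3 batches as a term the differences were unchanged and their SE was 0.617 for the locus and 1.08 for AT1G74456. Without GFP-FIB1 replicate 4 the difference at the locus was -0.05. None of the 26493 features (0%) was called between the tagged proteins by limma at an adjusted p under 0.05, and the smallest adjusted p was 1.00. An unadjusted p under 0.05 was found at 224 of the 26493, a smaller share than the 0.05 that chance alone would give on average. The lack of calls does not show that the proteins are alike. The groups of the tagged proteins did not overlap at 258 features (0.974%), and neither member was among them. Over the 242 snoRNA genes tested the median difference was 0.01 on the log2 scale, against -0.06 over all features.

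Within batches the locus stayed above GFP throughout. For GFP-FIB1 its log2 difference from GFP was 5.87 in batch A, 5.75 in batch B and 4.05 in batch C, and for CFP-FIB2 it was 6.45, 5.63 and 3.00. For AT1G74456 the difference from GFP was -2.04, 5.68 and 3.85 with GFP-FIB1, and 2.05, 5.85 and 3.04 with CFP-FIB2, in the same order of batches. GFP-FIB1 minus CFP-FIB2 was -4.09, -0.17 and 0.81 for AT1G74456 and -0.59, 0.12 and 1.05 for the locus, so for the locus too its sign was not the same in every batch. Each batch holds at most 2 libraries per group, so these are values without a test.

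The balance between the members was alike within batch B and within batch C, and spread widely in batch A. The locus held 100%, 40.0%, 83.4% and 82.8% of the reads of both members in GFP-FIB1 replicates 1 to 4. The CFP-FIB2 replicates had 89.0%, 35.4%, 77.2% and 83.7% there, and GFP replicates 2 to 4 had 7.0%, 36.8% and 82.5%. In batch B the share lay between 35.4% and 40.0% in all 3 groups, and in the 5 libraries of batch C between 77.2% and 83.7%. In batch A it was 100% and 89.0% with the tagged proteins and 7.0% in GFP replicate 2. These are shares of reads and not per length, and the part of the batch in them was not tested.

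**Figure D2:**
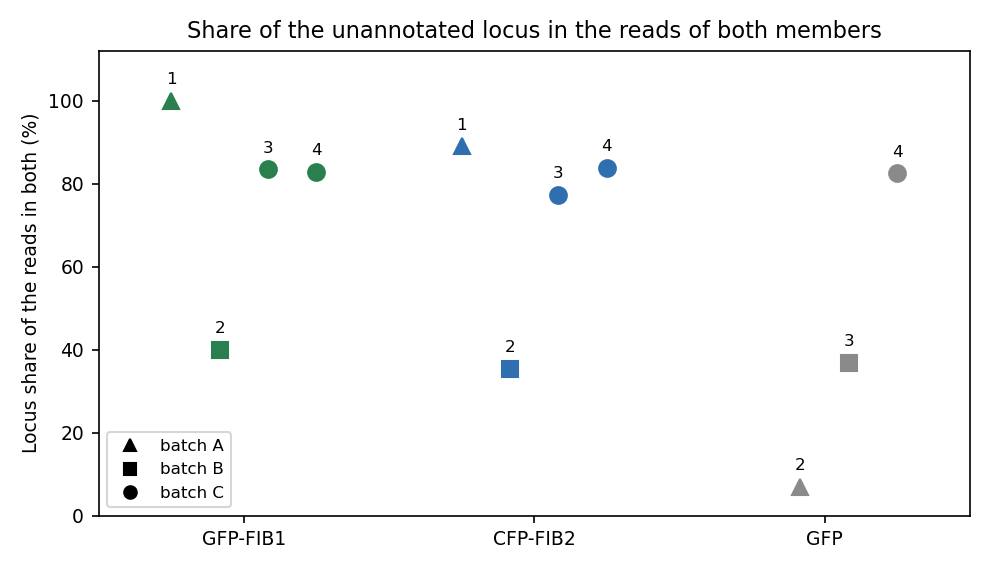
Share of the unannotated locus in the reads in peaks of both members, in percent, by group. Each numbered point is a library and its shape gives the batch, and GFP replicate 1 is not shown because it had no read in either member. Batch B libraries lie between 35.4% and 40.0% and batch C libraries between 77.2% and 83.7% in every group.

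The reads of both members were also summed, as if from 1 stretch of RNA. Their summed level was 545 ± 351 scaled RPM with GFP-FIB1, 384 ± 230 with CFP-FIB2 and 17.1 ± 17.5 with GFP (SD, n = 4 each). The lowest sum of a tagged library was 85.3 scaled RPM with GFP-FIB1 and 145 with CFP-FIB2, against a highest sum of 41.3 with GFP. The sums of all 8 tagged libraries were therefore above those of GFP.

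The positions of the peaks did not follow the annotated gene. Peaks covered bases 3 to 42 of the 82 bases of AT1G74456 in at least 1 library, and no library had a peak over its last 40 bases. Upstream, peaks covered all 42 bases of the unannotated locus. Only the 11 bases from 27984825 to 27984835 between these stretches lay under no peak. The members' peaks thus span 93 nt, from 27984877 at the 5′ end to 27984785 at the 3′ end.

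Several libraries shared the same outer ends. A locus peak reached the 5′ base of the span in 7 of the 11 libraries with a locus peak. At the 3′ end, a gene peak reached the last base in 3 of the 10 libraries with a gene peak and came within 1 nt of it in 5 of 10. Libraries of all 3 groups were among those with a locus peak over bases 1 to 14 of the span. In GFP-FIB1 replicate 2 that peak held 2519 reads, in CFP-FIB2 replicate 4 it held 1573 reads and in GFP replicate 4 it held 221 reads.

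The strongest locus peak of a library held 81.5% to 100% of that library's locus reads. In most libraries it lay within bases 1 to 14, but in CFP-FIB2 replicate 2 the single locus peak ran over bases 1 to 30, with 2681 reads. In the first replicates of GFP-FIB1 and CFP-FIB2, both of batch A, the strongest peak was only 3 nt wide, over bases 4 to 6 of the span, with 413 and 853 reads. In GFP replicate 2, of the same batch, the only locus peak lay over bases 14 to 30 and held 7 reads, with a p of 0.00053 in the authors' list. Over all libraries of the series the median peak width was 10 nt.

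**Figure D3:**
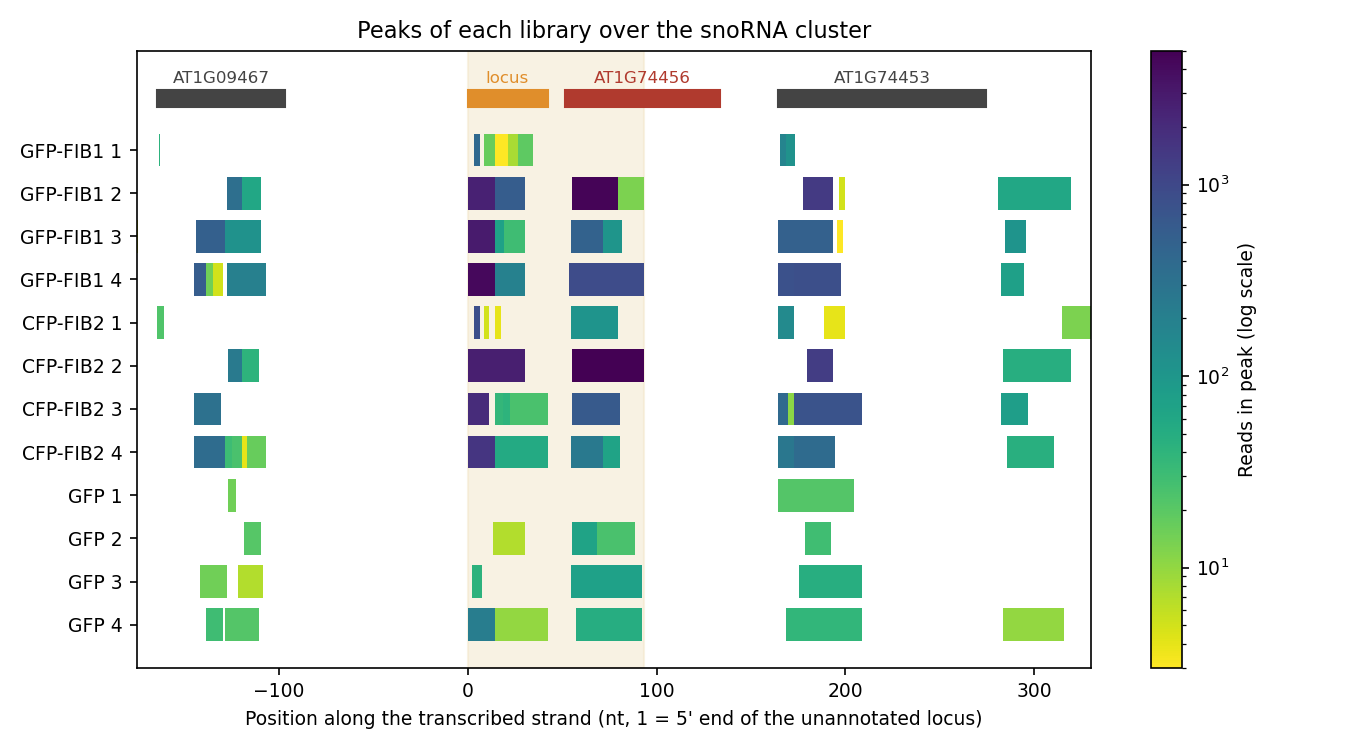
Peaks of each of the 12 libraries along the transcribed strand, with position 1 at the 5′ end of the unannotated locus and colour for reads in the peak on a log scale. Bars at the top are AT1G09467, the unannotated locus, AT1G74456 and AT1G74453, and the shaded band is the 93 nt span of the members' peaks. No peak covers the last 40 bases of AT1G74456.

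The span is printed here because its letters bear on what the peaks cover. Capitals mark the 2 stretches that are complementary to neighbouring stretches of the 25S ribosomal RNA region. That region is printed under it with the same stretches in capitals, from chr2:8452-8483 on the plus strand. The annotation has no 25S gene beside the nuclear 5.8S genes, so the 3600 nt after each of these were taken as the 25S region.

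span of member peaks: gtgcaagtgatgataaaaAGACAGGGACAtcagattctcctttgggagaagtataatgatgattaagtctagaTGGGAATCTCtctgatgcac
25S region: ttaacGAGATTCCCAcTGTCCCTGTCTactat

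The span holds TGATGA at bases 8 to 13, inside the unannotated locus, and again at bases 57 to 62, inside AT1G74456. It holds CTGA at bases 85 to 88 and nowhere else. Its first 5 bases, gtgca, are complementary to its last 5, tgcac, with 2 bases between the first of these stretches and TGATGA and none between CTGA and the last. Neither the locus nor AT1G74456 holds both of these end stretches: the first lies in the locus and the last in the gene.

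One complement of ribosomal RNA lies in each member. Bases 19 to 29 of the span, in the locus, are complementary over 11 nt to nt 2523 to 2533 of the 25S region. Bases 74 to 83, in AT1G74456, are complementary over 10 nt to nt 2512 to 2521 and end 1 nt before CTGA. On the ribosomal RNA the stretches are 1 nt apart, at chr2:8457-8466 and chr2:8468-8478, and the copy on chromosome 3 has the same letters there. The fifth base upstream of CTGA is base 80 of the span and lies opposite nt 2515 of the 25S region. Another complement, bases 39 to 48 to nt 3381 to 3390, is 36 nt from CTGA. Such matches describe letters and are not measured sites of pairing or methylation.

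How common these letters are was counted in windows of 93 nt, on the transcribed strand alone because the peaks are stranded. Windows began at the 5′ end of the 6091 tested nuclear intergenic regions other than the locus and of the 287 annotated snoRNA genes. TGATGA stood in 48.1% of the snoRNA windows and 4.79% of the intergenic ones, and CTGA in 201 of the 287 snoRNA windows and 22.2% of the intergenic ones. TGATGA starting in the first 15 bases together with CTGA ending in the last 20 was found in 89 snoRNA windows (31.0%) and 6 intergenic windows (0.0985%). A complement of 18S, 5.8S or 25S sequence of at least 10 nt that ended at most 3 nt before CTGA was found in 88 snoRNA windows (30.7%) and 21 intergenic windows (0.345%). The window length and these limits were set with the letters of the span known, and its ends come from joining the peaks of both members, so its having both features is no result of the count. A complement of at least 10 nt anywhere was found in 64.5% of the snoRNA windows and in 26.3% of the intergenic ones. Of the 69 words of 25 nt in the span, 3 (4.35%) also occur elsewhere in the genome.

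Peaks over the complementary stretch of ribosomal RNA itself were present in all 12 libraries on the chromosome 3 copy. On the chromosome 2 copy only CFP-FIB2 replicate 1 and GFP replicates 1 and 2, all of batch A, had peaks. Over both copies together, these peaks made up 0.235%, 0.187%, 0.185% and 0.151% of all reads in peaks across the 4 GFP-FIB1 replicates. In the CFP-FIB2 replicates the shares were 1.91%, 0.0189%, 0.142% and 0.0277%, and in the GFP replicates 0.783%, 1.19%, 0.109% and 0.162%. The groups overlapped, and the 4 libraries of batch A had the highest shares of the 12.

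The snoRNA genes on either side were also higher with the tagged proteins. AT1G74453 had a peak in all 12 libraries, with 54.0, 119, 148 and 283 scaled RPM in GFP-FIB1 replicates 1 to 4. The CFP-FIB2 replicates had 23.0, 119, 109 and 155 scaled RPM and the GFP replicates 6.01, 4.94, 4.22 and 5.60. Neither tagged group overlapped GFP, and the log2 difference from GFP was 4.39 with GFP-FIB1 and 3.77 with CFP-FIB2.

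At AT1G09467 the margin over GFP was narrow. The gene had 7.79, 33.2, 92.8 and 138 scaled RPM in GFP-FIB1 replicates 1 to 4. The CFP-FIB2 replicates had 3.44, 24.8, 30.5 and 108 scaled RPM and the GFP replicates 4.10, 3.58, 1.93 and 7.66. The lowest GFP-FIB1 library was above the highest GFP library, at 7.79 against 7.66 scaled RPM, while CFP-FIB2 replicate 1 lay inside the GFP range.

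**Figure D4:**
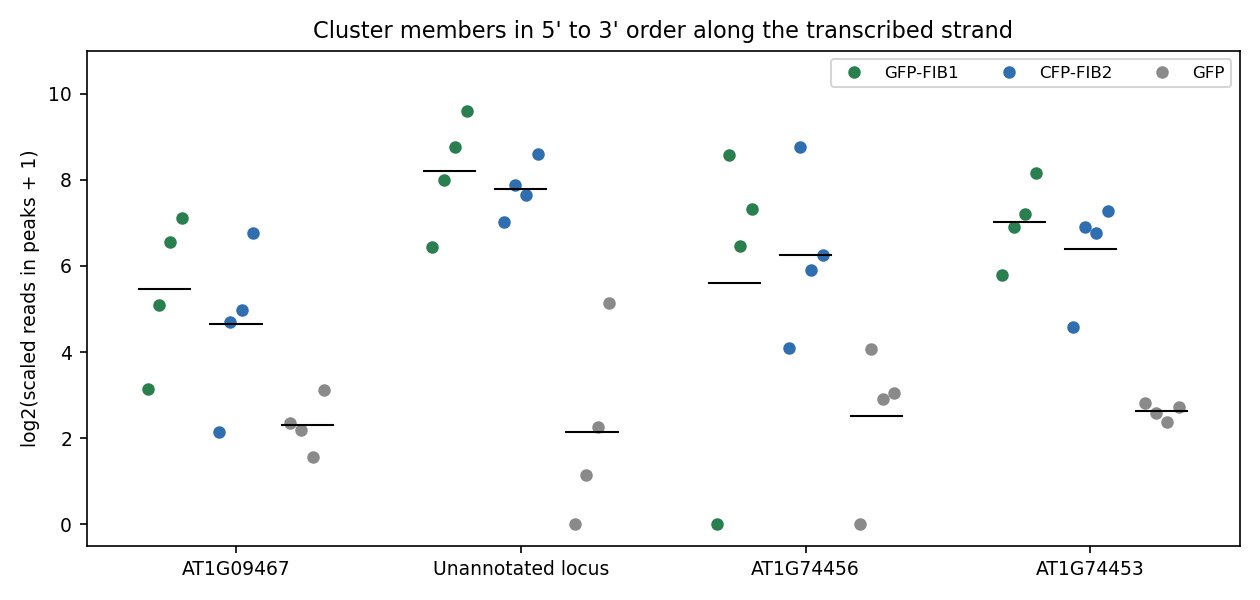
Scaled reads in peaks, on a log2(value + 1) axis, of the 4 stretches of the cluster in 5′ to 3′ order. Each point is a library and each short line the mean of 4 libraries, and levels are per stretch and not per length. All 8 tagged points lie above the GFP points at the unannotated locus and at AT1G74453, where the GFP points lie close together.

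In position, the peaks of AT1G74453 resembled those of AT1G74456. They covered bases 1 to 44 of its 110 bases and left its last 66 bases free, although a second CTGA ends at base 108. In both genes the covered part ended 5 bases after the first CTGA, which ends at base 37 of AT1G74456 and at base 39 of AT1G74453. AT1G74453 holds a complement of 14 nt to nt 463 to 476 of 18S ribosomal RNA, at bases 23 to 36, which overlaps the start of that CTGA. The peaks of AT1G09467 lay within bases 1 to 58 of its 68 bases and stopped before its CTGA at bases 60 to 63, and it holds a complement of 10 nt to nt 601 to 610 of 18S at bases 15 to 24.

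Another unannotated region of the same strand, noticed after its values were seen, lay just downstream of AT1G74453, at 27984493 to 27984597. It held 0, 61, 106 and 90 reads in GFP-FIB1 replicates 1 to 4, then 13, 48, 81 and 47 reads in the CFP-FIB2 replicates and 0, 0, 0 and 10 reads in the GFP replicates. CFP-FIB2 was above GFP in every library by scaled RPM, at 1.94 or more against at most 1.47, while GFP-FIB1 replicate 1 had no peak there.

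The remaining annotated genes within 5 kb had few reads. AT1G74440, AT1G74450 and AT1G74460, all protein-coding, had mean levels of 6.15, 1.71 and 3.12 scaled RPM with GFP-FIB1. With CFP-FIB2 their means were 7.59, 1.35 and 3.14 scaled RPM and with GFP 2.46, 3.03 and 1.94, and GFP overlapped both tagged groups at each. AT1G74458, AT1G74457 (a pseudogene) and AT1G09463 (a long non-coding RNA) did not pass the filter on low values, with at most 6, 4 and 11 reads in a library, and MIR415 (AT1G09473, a microRNA gene) had no peak. AT1G74450 lies on the plus strand, 464 nt from AT1G74456.

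Across the 12 libraries the level of AT1G74456 was most like that of 3 other snoRNA genes. On the log2(scaled RPM + 1) scale Pearson's r was 0.966 with AT1G75166, 0.962 with AT1G03746 and 0.956 with AT5G02295, all annotated as snoRNA genes. Next came 2 protein-coding genes, AT1G51200 at 0.943 and AT5G46470 at 0.940. The 5 features most like the unannotated locus were all snoRNA genes: AT2G20721 at 0.985, AT4G04465 at 0.981, AT1G08643 at 0.979, AT3G24615 at 0.978 and AT1G05427 at 0.968. The correlation between the members was 0.694, which placed AT1G74456 at rank 638 for the locus and the locus at rank 2267 for AT1G74456. The libraries share groups and batches, so these coefficients are a description over 12 libraries. The locus was chosen for its rise over GFP, and 236 of the 242 snoRNA genes tested were also higher with each tagged protein. Its likeness to snoRNA genes is therefore no separate result.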

How the data were processed

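CLIP-seq peak lists of 12 libraries, 4 each of GFP-FIB1, CFP-FIB2 and GFP, were analysed. Groups and replicate numbers came from the titles. The authors deposited 1 list per library, called per library, with a p-value for each peak, at most 0.05, and a name ending in a whole number of at least 3. The labels do not explain that number. It was read as reads in the peak, since its Spearman correlation with the deposited p-value was -0.995 to -0.973 within libraries. The authors used DESeq2, per the submitters' processing notes, with no version. The aligner, the peak caller, the genome build and any removal of duplicates are not stated there. Reads may include PCR copies, and total depth is unknown.

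Of 624188 gene-named peaks matched to the RefSeq annotation of TAIR10.1, 99.9% lay inside the annotated gene, so its coordinates were used. Reads were summed per gene and per merged strand-specific intergenic region. Features were kept with 10 reads or more, at median depth, in 4 libraries or more and with 15 reads over all 12. Libraries were scaled with TMM factors (trims of 30% and 5%). The test was limma 3.58.1 with a mean-variance trend on log2(RPM + 1), with all 12 libraries in 1 fit and Benjamini-Hochberg adjustment over all 26493 features. The fit was run on data simulated without batches or missed peaks, which checks the code and not its power in these data. Fold changes of low features are lowered by the pseudocount of 1. Replicates of a group differed by more than sampling noise in all 18 pairs (chi-square over degrees of freedom, 36.6 to 409).

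The named genes are both members, annotated genes within 5 kb, and the 5 features with the highest Pearson correlation to each member. Members and lists were chosen with earlier results of these data known, and the reduction of peaks across names was added after seeing the data. Batches were found from the peak lists. Replicate numbers of the tagged proteins paired, as deviations of same-numbered GFP-FIB1 and CFP-FIB2 libraries correlated at 0.661, 0.514, 0.453 and 0.506. The best match of GFP-FIB1 replicate 4 was CFP-FIB2 replicate 3. With GFP the numbers did not pair throughout. The correlations were 0.682, -0.0774, 0.323 and 0.64 for GFP-FIB1 and 0.642, -0.269, 0.245 and 0.541 for CFP-FIB2. The replicate block, an alternative fit, nonetheless used the replicate number in all 12 libraries, GFP included. Python 3.11.15, numpy 2.4.6, pandas 2.3.3, scipy 1.17.1 and R 4.3.3 were used.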

Additional observations from a re-analysis of the deposited data

Results flagged for a closer look

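AT1G74456 in CFP-FIB2 replicate 2 stood far from the rest of its group, with 431 scaled RPM against a next highest value of 75.4, a gap of 0.857 of the group's range. The unannotated locus in GFP replicate 4 stood apart in the same way, with 34.0 scaled RPM against a next highest 3.78, a gap of 0.889 of the range. Both gaps exceed the 95% critical value of Dixon's test for 4 values, which chance passes in about 1 of 20 groups of normally distributed values. The gaps were taken on scaled RPM, and each member and the locus share were screened in each group. On the log2 scale, CFP-FIB2 replicate 2 had 8.755 against a next highest 6.26 and a lowest 4.09. At the locus GFP replicate 4 had 5.13 against 2.26 and 0.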

How the results depend on the processing

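The alternatives were a pseudocount of 0.5 or 4, other scalings, no filter, genes with the locus alone, all peaks as deposited, a peak p of at most 0.001, a reduction across names, a batch term, the block and left-out libraries. The mean log2 level of AT1G74456 stayed above that of GFP in all of them, at 2.09 to 4.95 with GFP-FIB1 and 2.91 to 4.47 with CFP-FIB2. GFP-FIB1 minus CFP-FIB2 was not called for either member in any, at adjusted p of 0.965 to 1 for AT1G74456 and 0.962 to 1 for the locus by limma. With one library left out this difference ran from -1.66 to 1.21 for AT1G74456 and from -0.055 to 1.00 for the locus. The locus minus GFP ran from 5.36 to 7.07 with GFP-FIB1 and from 4.95 to 6.66 with CFP-FIB2 then, and with a pseudocount of 4 it was 5.07 and 4.67. Counting only locus peaks that cover at least 21 of its 42 nt made both tagged groups overlap GFP and gave -2.93 for GFP-FIB1 minus CFP-FIB2, -0.33 for GFP-FIB1 minus GFP and 2.60 for CFP-FIB2 minus GFP, since this discards the strongest peak in every library with a locus peak but CFP-FIB2 replicate 2.

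Without the filter, 21 features were called between the tagged proteins, among 35566 gene features and 223347 intergenic regions. With one library left out, 223 to 1421 of the 26493 features separated fully for GFP-FIB1 above GFP and 347 to 1262 for CFP-FIB2. Both were highest without the first tagged replicate. Such a count can only stay or rise when a library is left out. Scaling by total reads gave 124 for CFP-FIB2. What set the size of these changes was not tested.

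The replicate block was fitted by number on all 12 libraries, GFP included, although the GFP numbers did not pair throughout. With it, the differences between the tagged proteins stayed at -0.66 ± 0.87 for AT1G74456 and 0.41 ± 0.82 for the locus (SE). It gave 0 features called by limma, and no call changed.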
